A study of Mus musculus with 5 samples.

Results

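Adrenergic receptors are the receptors for noradrenaline and adrenaline, and 7 of their genes are described here: Adra1a, Adra1b, Adra1d, Adra2a, Adra2b, Adrb1 and Adrb3. They were taken by symbol from the deposited table of 18044 genes, and all 7 were found. Other genes of the family are not analysed here. The table comes from cells of the pelvis-kidney junction of wild-type C57BL/6 mouse embryos at E18.5, the region where the renal pelvis meets the kidney. The labels name no transgene and no treatment. Junctions of all embryos were pooled, dispersed with collagenase and sorted by flow cytometry with an antibody against HCN3, a hyperpolarization-activated cation channel. The cells kept were HCN3-positive, which the submitters call urinary tract pacemaker cells, or HCN3-negative. The series holds 5 libraries, 2 labelled HCN3-positive and 3 labelled HCN3-negative, with 24588864 to 39034478 reads in genes. Nothing tells whether each replicate had its own pool of embryos, so p-values here reflect variation among the samples at hand, part of which may be technical. Below, a positive-labelled library is one that its title labels HCN3-positive, and likewise for negative-labelled.

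The receptors fall into 3 classes by the G protein they engage. Alpha-1 receptors act through Gq and phospholipase C to release stored calcium, and they contract the smooth muscle of the ureter and of blood vessels. Alpha-2 receptors act through Gi to lower cyclic AMP. Beta receptors act through Gs to raise cyclic AMP, and in the kidney Adrb1 is known for driving renin release while Adrb3 is known for relaxing bladder smooth muscle.

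The labels and the authors' own comparison divide the libraries in different ways, and this touches every result. In each of the 18047 rows, summary rows of the read counter included, the fold of the authors' deposited table matches a ratio of means of library columns at a relative tolerance of 0.01. The denominator is the mean of positive-labelled library 1 and negative-labelled library 2, and the numerator the mean of the other 3. Since the table does not name its groups, the pair in the denominator is called the first set here, and the second set holds the remaining 3 libraries. The transcript of the sorted protein, Hcn3, had 0 reads in positive-labelled library 1. Its normalized counts, which are reads divided by the authors' size factor of the library, were 44.5 in positive-labelled library 2 and 103, 32.2 and 41.9 in negative-labelled libraries 1, 2 and 3. The summed normalized count of 10 leukocyte markers was 316111 and 429725 in the first set against 756 to 1738 elsewhere, and 0 of the 10 were at 0 in every library. Libraries are therefore named by their labels, and no direction is taken to speak of HCN3 protein. In bulk libraries, fewer cells of a type and less RNA per cell cannot be told apart.

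Of the 7 receptors, Adra2b, Adra2a and Adrb1 had the highest mean levels per length. Levels between genes are compared as normalized count per kilobase of exon, using the union of exons in GENCODE M21 (mm10), which may not be the annotation the authors counted on. The mean over 5 libraries on this scale was 30.6 for Adra2b, 29.9 for Adra2a, 21.3 for Adrb1, 5.41 for Adra1b, 5.25 for Adra1a, 4.06 for Adrb3 and 1.85 for Adra1d. Each gene's range over the libraries overlapped that of its neighbours in this order, so neighbours did not differ beyond their spread. Further apart, Adra2a ranged from 16.0 to 45.0 and lay above the highest library of Adra1b (11.2), Adra1a (9.90), Adrb3 (9.24) and Adra1d (3.75).

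The leading receptor was not the same in each library. Per kilobase, Adrb1 led in positive-labelled library 1, with 62.1 against 44.9 for Adra2a. Adra2a led in positive-labelled library 2, with 45.0 against 19.8 for Adra2b. Adra2b led in the 3 negative-labelled libraries, with 25.3, 44.8 and 60.3 against 22.9, 20.9 and 16.0 for Adra2a, although in negative-labelled library 2 Adrb1 came next, at 30.8. Between Adra2b and Adra2a in negative-labelled library 1 the difference was small, from 114 and 124 reads over exons of different length.

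**Figure D1:**
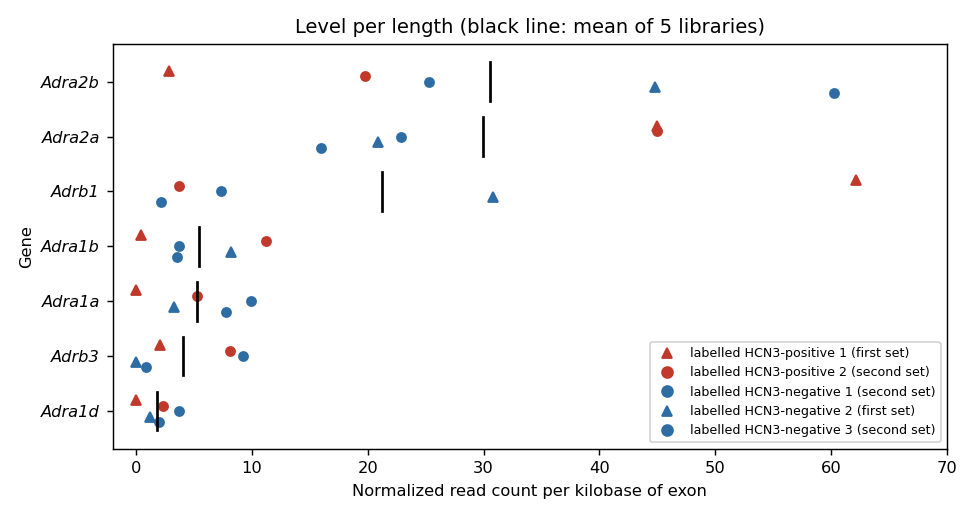
Normalized read count per kilobase of exon (horizontal axis) of the 7 receptor genes (rows) in each of 5 libraries, in order of their mean, which a black line marks. Red points are positive-labelled and blue points negative-labelled libraries, with triangles for the first set of the authors' division. Adra2b, Adra2a and Adrb1 have means of 30.6, 29.9 and 21.3, and the means of the other 4 genes are 5.41 or less, with single libraries up to 11.2.

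By label, no receptor gene passed the test, and neither did any other gene. The test was limma on log2(normalized count + 1), labelled HCN3-positive over labelled HCN3-negative, fitted across the 16579 genes whose mean reached 5. That filter kept 6 of the 7 receptors and left out Adra1d. Of the 6, 0 were called at an adjusted p of 0.05, beside 0.0% of all genes tested. At an unadjusted p of 0.05, 0 of the 6 and 157 of all 16579 genes passed. The positive-labelled libraries differed more from each other (chi-square of 675 per degree of freedom) than those of the first set did (118). With so few libraries and such differences within a label, a missing call does not show equal levels. On recovered whole reads edgeR called 0 genes, and DESeq2 called 10 of 16300 genes (0.0613%), of which 0 were receptors. For 2 receptors, Adra2a and Adra2b, every library of one label lay above every library of the other, which also held for 10.8% of all genes with a mean of at least 5.

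**Figure D2:**
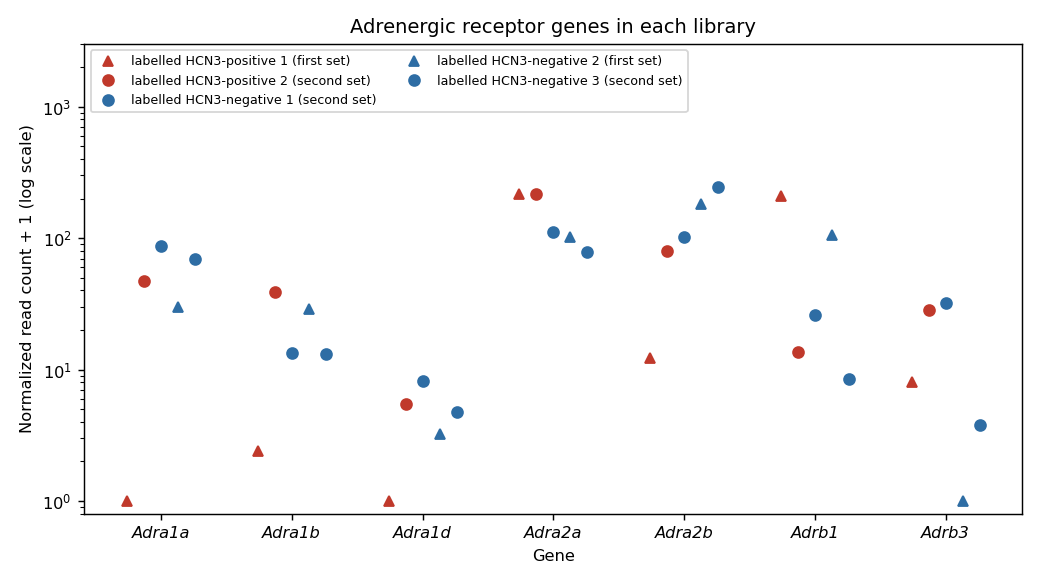
Normalized read count plus 1 (vertical axis, log scale) of the 7 receptor genes (horizontal axis) in each library, with positive-labelled libraries in red and negative-labelled ones in blue, with triangles for the first set of the authors' division. Adra2a has a normalized count of 217 in both red libraries and of 77.2 to 110 in the blue ones, whereas Adrb1 has 210 and 104 in the triangles and 7.44 to 24.9 in the circles.

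Among the alpha-1 receptors, Adra1a was missing from a single library. Adra1a (ENSMUSG00000045875, chromosome 14, 66635251 to 66771168, plus strand, mm10, 5 exon blocks) encodes the alpha-1A receptor, known for contraction of the smooth muscle of the lower urinary tract. Its normalized counts were 0 and 46.0 in positive-labelled libraries 1 and 2, and 86.4, 28.9 and 67.9 in negative-labelled libraries 1, 2 and 3. Positive-labelled library 1 was the low one, the labelled groups overlapped, and the first set lay below the second. Against a floor of 3 reads in that library, a normalized count of 4.23, its level was at least 20.4-fold lower than in negative-labelled library 1. The label difference was -3.04 (SE 1.85) on the log2(value + 1) scale, and limma gave an adjusted p of 1.00, beside an exact 2-sided permutation p of 0.2. The smallest p that 10 splits of 5 libraries can give is 0.1. Without positive-labelled library 1 the difference was -0.26. The summed count of 9 smooth muscle markers was 7075 and 109233 in the positive-labelled libraries and 148318, 5126 and 28501 in the negative-labelled ones. It was lowest in the first set, as Adra1a was. The sums of renin cell, pericyte, renal stroma, podocyte and endothelium markers, among others, were also lowest there. Within that pair Adra1a was lower in positive-labelled library 1 and the smooth muscle sum in negative-labelled library 2. None of the 9 smooth muscle markers was at 0 in every library. The part of these cell types in the result was not tested.

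Adra1b was also low in positive-labelled library 1, but otherwise did not divide the libraries as Adra1a did. Adra1b (ENSMUSG00000050541, chromosome 11, 43774606 to 43901210, minus strand, 5 exon blocks) encodes the alpha-1B receptor. Its normalized counts were 1.41 and 37.8 in the positive-labelled libraries, and 12.5, 27.7 and 12.1 in the negative-labelled ones, from 1, 51, 14, 25 and 13 reads. Positive-labelled library 2 was highest and positive-labelled library 1 lowest, so the label groups overlapped completely. The label difference was -0.83 (SE 1.53; adjusted limma p of 1.00; exact permutation p = 0.9). It turned to 1.18 without positive-labelled library 1, and to 0.20 in edgeR and 0.19 in DESeq2.

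Adra1d, the alpha-1D receptor gene, was barely detected. It lies on chromosome 2 (ENSMUSG00000027335, 131545850 to 131562283, minus strand), where its exons share up to 147 bases with the transcript Gm14285 on the other strand. Nothing in the labels says that the library kit keeps strand, and reads of that stretch may belong to either gene. It had 0 and 6 reads in the positive-labelled libraries and 8, 2 and 4 in the negative-labelled ones. Of these, 0 and 2 reads came from the first set. The labelled groups overlapped, with an exact permutation p of 0.5, and a difference was not detectable at this depth.

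The alpha-2 receptors lay in opposite orders by label, Adra2a higher and Adra2b lower in the positive-labelled libraries, and neither passed the test. Adra2a (ENSMUSG00000033717, chromosome 19, 54044151 to 54048982, plus strand, a single exon) encodes the alpha-2A receptor, also known as the autoreceptor of sympathetic nerve endings. Its normalized counts were 217.1 and 217.3 in the positive-labelled libraries, and 110, 101 and 77.2 in the negative-labelled ones. Both positive-labelled libraries lay above all 3 negative-labelled ones, although they belong to different sets of the authors' division. The means were 217.2 ± 0.191 (SD, n = 2) and 96.2 ± 17.1 (SD, n = 3). The smaller SD rests on 2 values, from 154 and 293 reads, and is no measure of replicate precision. The exact permutation p was 0.1, or 0.35 after Benjamini-Hochberg adjustment over the 7 receptors. The limma difference was 1.18 (SE 0.59) on the log2(value + 1) scale, with an adjusted p of 1.00. It stayed between 1.03 and 1.29 with each library left out in turn. Within the second set alone it was 1.23.

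The summed count of collecting duct markers, like Adra2a, was higher in both positive-labelled libraries, though not every marker was. The sums of the distal nephron overlapped between the labels, but its mean log2 levels did not. The summed count of 8 collecting duct markers was 64332 and 15983 in the positive-labelled libraries and 11469, 15437 and 7423 in the negative-labelled ones. That of 6 loop of Henle and distal tubule markers was 37300 and 18562 against 20511, 18863 and 15133. The collecting duct sum of positive-labelled library 1 was far above that of positive-labelled library 2, while Adra2a was even between them. The nearest collecting duct sums of the 2 labels, 15983 and 15437, lay close together. Taken singly, Aqp2, Aqp3, Scnn1b, Scnn1g and Ret overlapped between the labels, and only Wnt9b, Hsd11b2 and Gata3 did not. None of these 14 markers was at 0 in every library, and their part in the Adra2a values was not tested.

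Adra2b (ENSMUSG00000058620, chromosome 2, 127363208 to 127367221, plus strand, a single exon) encodes the alpha-2B receptor, known from the proximal tubule of rodents. Its normalized counts were 11.3 and 79.4 in the positive-labelled libraries, and 102, 180 and 242 in the negative-labelled ones. All 3 negative-labelled libraries lay above the other 2, with a gap from 79.4 to 102 between the nearest pair. The means were 45.3 ± 48.2 (SD, n = 2) and 174 ± 70.3 (SD, n = 3), with an exact permutation p of 0.1 and an adjusted value of 0.35 over the 7 receptors. The limma difference was -2.39 (SE 1.07; adjusted p of 1.00), and -1.04 without positive-labelled library 1. The summed count of 8 proximal tubule markers was likewise lower in the positive-labelled libraries, at 3965 and 6042 against 9223, 32212 and 17067. Adra2b was highest in negative-labelled library 3 and the proximal tubule sum in negative-labelled library 2. None of those 8 markers was at 0 in every library, and their part in the Adra2b values was not tested.

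Among the beta receptors, Adrb1 followed the authors' division of the libraries and not the labels. Adrb1 (ENSMUSG00000035283, chromosome 19, 56722199 to 56733113, plus strand, 3 exon blocks) encodes the beta-1 receptor of heart and kidney. Its normalized counts were 210 and 12.6 in the positive-labelled libraries, and 24.9, 104 and 7.44 in the negative-labelled ones, from 149, 17, 28, 94 and 8 reads. The 2 high libraries were positive-labelled library 1 and negative-labelled library 2, and they did not overlap with the other 3. By label the groups overlapped, with a limma difference of 0.91 (SE 1.72; adjusted p of 1.00; exact permutation p = 0.6). Without positive-labelled library 1 the label difference turned to -1.06, and within the second set it was -0.12. In the authors' deposited table Adrb1 was 10.5-fold higher in the first set, with an adjusted p of 0.0135 there and means of 157 and 15.0 over the library columns.

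Adrb1 was thus the 1 receptor of 7 that was called in the authors' deposited table, beside 14.2% of all its genes called in either direction, 8.1% as higher and 6.09% as lower in the first set. The leukocyte markers were high in the same 2 libraries. Within this pair the orders differed: Adrb1 was at 210 and 104, the tyrosine phosphatase Ptprc of leukocytes at 31182 and 22996, and the macrophage growth factor receptor Csf1r at 92160 and 139878. The renin gene Ren1, a marker of cells in which Adrb1 is known to act, had 734 and 537 in the first set. In the second set Ren1 had 4770 in positive-labelled library 2, and 12089 and 999.98 in negative-labelled libraries 1 and 3. Ren1 was thus lower in the first set, where Adrb1 was higher, while within each set both genes ranked the libraries alike. What part these cell types had in the Adrb1 difference was not tested.

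The sequence just upstream of the annotated start of Adrb1 is shown because Adrb1 is the receptor called in the authors' deposited table, beside that of Adra2b, whose levels ran otherwise. Both were read from the RefSeq promoter table (GRCm38.p6), in which 4 of the 7 receptors were matched, and cover 250 bases before the RefSeq start on the plus strand. Capitals mark the cyclic AMP response element core TGACG, the CCAAT box CCAAT and the GC box GGGCGG, on either strand.
Adrb1, chr19:56721867-56722116: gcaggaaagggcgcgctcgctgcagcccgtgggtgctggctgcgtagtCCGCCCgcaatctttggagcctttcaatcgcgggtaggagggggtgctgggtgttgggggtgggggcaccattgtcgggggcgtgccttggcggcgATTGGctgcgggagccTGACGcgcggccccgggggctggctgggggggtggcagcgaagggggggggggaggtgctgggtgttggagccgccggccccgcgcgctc
Adra2b, chr2:127362929-127363178: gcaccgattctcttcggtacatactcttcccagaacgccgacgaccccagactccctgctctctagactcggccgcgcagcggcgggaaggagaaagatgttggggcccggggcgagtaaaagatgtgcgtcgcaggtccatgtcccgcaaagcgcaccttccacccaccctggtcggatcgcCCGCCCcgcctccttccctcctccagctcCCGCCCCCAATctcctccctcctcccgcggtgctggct
Both windows are rich in CG dinucleotides, with 24 in Adrb1 and 23 in Adra2b against a median of 6 over 32851 windows of the same length. The GC content was 74% and 66%, against a median of 52.4%. Adrb1 holds 1 TGACG core, 1 CCAAT box and 1 GC box, and Adra2b holds no TGACG core, 1 CCAAT box and 2 GC boxes, the last of which directly adjoins its CCAAT box. Of all windows, 17.8% hold the TGACG core, 33.8% a CCAAT box and 32.7% a GC box. Neither window holds the full element TGACGTCA (1.55% of windows), which contains the core, the TATA box TATAAA (12.4%) or the ETS-type site GAGGAAGT (2.44%), and the searches covered both strands. These matches describe letters only.

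Adrb3 (ENSMUSG00000031489, chromosome 8, 27225776 to 27250616, minus strand), the beta-3 receptor of adipocytes and bladder muscle, was detected mainly in 2 libraries. Its exons overlap those of Gm45470 on the other strand by up to 839 bases, so part of its reads is uncertain. Its normalized counts were 7.05 and 27.4 in the positive-labelled libraries, and 31.2, 0 and 2.79 in the negative-labelled ones, from 5, 37, 35, 0 and 3 reads. The high libraries were positive-labelled library 2 and negative-labelled library 1, and the labelled groups overlapped. With a floor of 3 reads, the level in negative-labelled library 2 was at least 9.37-fold lower than in negative-labelled library 1. The limma difference by label was 1.61 (SE 1.84; adjusted p of 1.00; exact permutation p = 0.5). The smooth muscle sum was highest in the same 2 libraries, at 109233 and 148318. So was the renin cell sum, at 6133 and 15020 against 693 to 1619 in the other 3. The pericyte sum (21903 and 36395, next 20585) and the sympathetic neuron and glia sum (700 and 659, next 527) were highest there too. The part of these cell types in the Adrb3 values was not tested.

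Side by side in the authors' deposited table, the receptors other than Adrb1 were not called. The fold of the second set over the first in the authors' deposited table was 4.63 for Adra1a (adjusted p of 0.501), 4.60 for Adra1d (1.00) and 5.81 for Adrb3 (0.792). It was 1.43 for Adra1b (1.00), 1.48 for Adra2b (0.992) and 0.849 for Adra2a (1.00) in the authors' deposited table. The sets did not overlap for 3 of the 7 receptors, Adra1a, Adra1d and Adrb1, beside 49.6% of all genes with a mean of at least 5. Adra1d, with a mean of 3.50, is not among the genes of that share. These folds and the label differences come from the same 5 libraries.

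**Figure D3:**
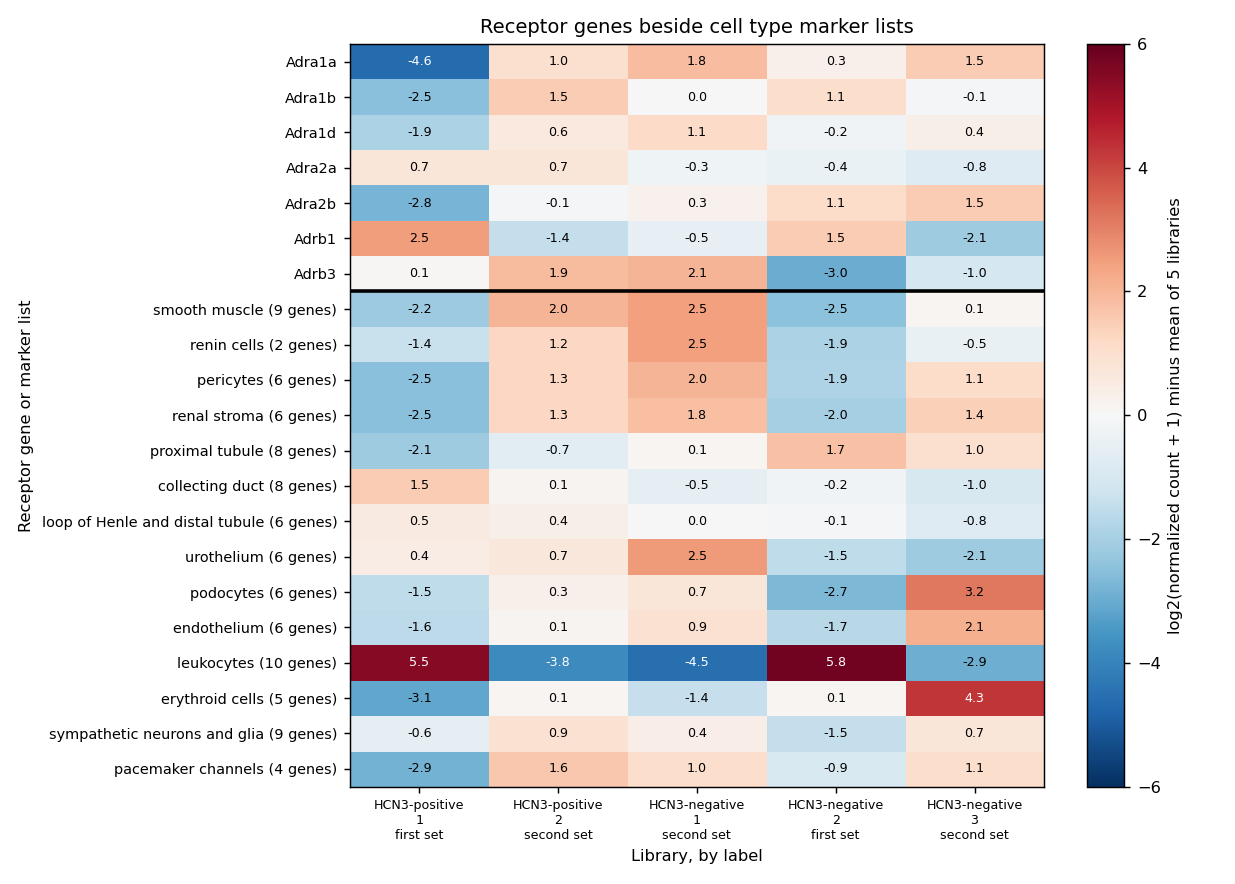
Level of each receptor gene (rows above the black line) and mean level of each cell type marker list (rows below it, with the number of genes) in the 5 libraries (columns, by label and by set of the authors' division), as log2(normalized count + 1) relative to the 5-library mean. Values above it are red and values below it blue. The leukocyte list stands at 5.46 and 5.77 in the pair of the first set, against -4.50 to -2.93 elsewhere, with Adrb1 alone among the receptors above its mean in both libraries of the first set and below it in all 3 of the second.

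The genes whose pattern came nearest to a receptor's were found for the 4 receptors with at least 1 read in every library. Likeness was measured as the root mean square difference of log2(normalized count + 1), each gene centred on its own mean over the 5 libraries, among 14367 named genes with a mean of at least 10. Nearest to Adrb1 were the integrin gene Itga4 (0.19), Cyp4v3 (0.23) and Plac8 (0.25), beside a root mean square of 1.76 for Adrb1 about its own mean. Itga4, a chain of a leukocyte adhesion receptor, had normalized counts of 12450 and 701 in the positive-labelled libraries and 1727, 5251 and 577 in the negative-labelled ones. Nearest to Adra2a were the epithelial sorting adaptor gene Ap1m2 (0.086), B4galnt3 (0.13) and Mpp2 (0.13), against 0.60 for Adra2a itself. Ap1m2 had 1696 and 1626 in the positive-labelled libraries and 797, 855 and 644 in the negative-labelled ones.

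For Adra2b the nearest were Crebl2 (0.30), the death ligand gene Tnfsf10 (0.32) and Gpd1 (0.32), an enzyme linking glycolysis and lipid synthesis, against 1.51 for Adra2b itself. Gpd1 had 62.0 and 632 in the positive-labelled libraries and 437, 1126 and 1751 in the negative-labelled ones. For Adra1b they were the angiotensinogen gene Agt (0.20), the potassium channel gene Kcnj5 (0.28) and Cstad (0.35), against 1.39 for Adra1b itself. These genes were picked as the nearest of 14367 over 5 libraries, so their likeness is a description. The values of Adra1b and Agt in positive-labelled library 1 were both 1.41, which is 1 read.

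**Figure D4:**
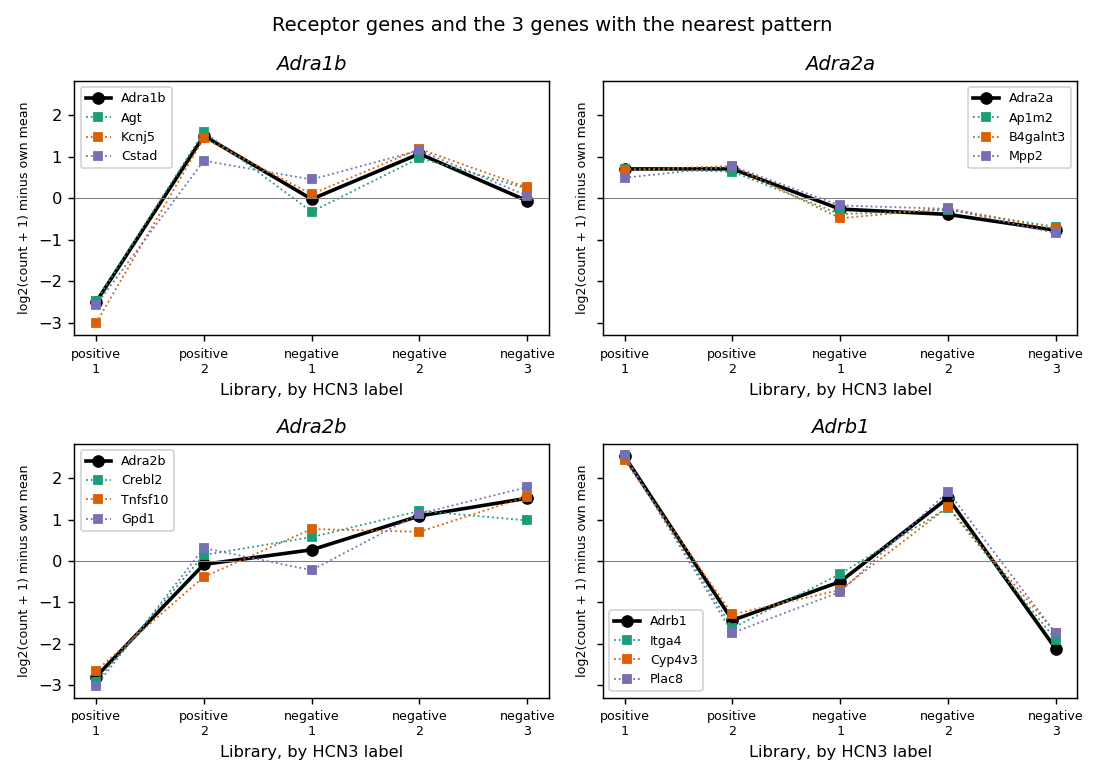
Level of 4 receptor genes (black) and of the 3 genes nearest in pattern to each (coloured) in the 5 libraries (horizontal axis, by HCN3 label), as log2(normalized count + 1) minus each gene's own mean (vertical axis). Lines only join points of a gene, since libraries have no order; Adrb1 and Itga4 are high in the libraries labelled positive 1 and negative 2, and Adra2a and Ap1m2 in the 2 libraries labelled positive.

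Of the pathway around the receptors, a list of 81 genes in 11 roles was present in the table, and 79 were tested by label. Of the 79, 0 passed limma in either direction, and 0 had an unadjusted p under 0.05. By label, 37 lay above and 42 below 0, with a median log2 difference of -0.05, beside -0.03 over all genes tested. At an adjusted p of 0.05 in the authors' deposited table, 11 of 81 were higher in the first set, beside 8.1% of all genes. In the same comparison 9 were lower, beside 6.09%, together 24.7% beside 14.2%. The shares of all genes cover 18044 genes, of which 16579 had a mean of at least 5, whereas 79 of the 81 did. They are thus not shares of genes with like levels, and nothing about the list is read from them. The median log2 fold of the first set over the second was -0.16 for the list, from the authors' deposited table, and -0.05 over all genes with a mean of at least 5. The values below give the library levels of the genes and, from the authors' deposited table, the fold and its adjusted p.

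Genes of catecholamine synthesis differed in how well they were detected. Ddc, the decarboxylase that makes dopamine, had normalized counts of 1.41 and 121 in the positive-labelled libraries and 76.6, 94.3 and 91.2 in the negative-labelled ones. Th, the rate-limiting hydroxylase of sympathetic neurons, had 76.1 and 5.19 against 13.4, 0 and 12.1, and Dbh, which makes noradrenaline, had at most 9.30 in any library. Of 4 synthesis genes, 0 were called in the authors' deposited table, beside 14.2% of all genes.

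Of 7 transport genes, 1 was called in each direction in the authors' deposited table. Of all genes, 8.1% were called higher and 6.09% lower in the first set. The vesicular amine transporter gene Slc18a1 had 359 and 509 in the first set and 76.4, 65.0 and 220 in the second, and was 3.60-fold higher in the first set in the authors' deposited table (adjusted p of 0.0156). Slc29a4, a plasma membrane monoamine transporter gene, was 5.92-fold higher in the second set in the authors' deposited table (0.0478). Slc18a2, the neuronal vesicular transporter gene, ranged from 116 to 416 with overlapping sets. Slc6a2, the noradrenaline transporter gene of sympathetic neurons, had only 2.79 to 4.23 in the 5 libraries. Among the breakdown enzymes, Maoa ranged from 466 to 1007 and was not called in the authors' deposited table.

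Among G protein alpha subunits, the Gs gene and a Gq class gene were lower in the first set. Gnas had 14656 and 12002 in the first set and 30063, 34334 and 28754 in the second, 2.33-fold higher in the second set in the authors' deposited table (adjusted p of 0.0118). Gna11, a Gq class subunit gene, was 2.16-fold higher there, with an adjusted p of 0.0389 in the authors' deposited table. Gnai2, a Gi subunit gene, had 26994 and 24792 in the first set and 13014 to 21650 in the second, without a call (0.299 in the authors' deposited table). The other 7 subunit genes were not called. Thus 2 of the 10 were called, both lower in the first set, beside 6.09% of all genes.

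Adenylyl cyclases, which make cyclic AMP, differed by isoform. Adcy7 had 6741 and 6145 in the first set and 209, 421 and 207 in the second, 23.1-fold higher in the first set in the authors' deposited table (adjusted p of 3.25e-25). Adcy2 and Adcy5 ran the other way, 6.32-fold and 13.4-fold higher in the second set in the authors' deposited table (1.48e-05 and 0.000753). Adcy5 had 19.7 and 13.3 in the first set and 252, 264 and 149 in the second. Adcy1 was high in a single library, negative-labelled library 3, at 4964 against 159 to 673, and was not called. All 9 cyclase genes had sets that did not overlap, beside 49.6% of all genes with a mean of at least 5, and 3 were called, beside 14.2% of all genes.

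Among the protein kinase A genes, inhibitor genes were called in both directions. Prkar1a, a regulatory subunit gene, ranged from 14885 to 19898, and Prkacb, a catalytic one, from 4170 to 5994, without calls. The inhibitor gene Pkib had 1606 and 1292 in the first set and 171, 102 and 48.4 in the second, 13.5-fold higher in the first set in the authors' deposited table (adjusted p of 6.76e-12). Pkia, another inhibitor gene, was 3.27-fold higher in the second set in the authors' deposited table (0.00988). These were the 2 called of 9 genes in this role, beside 14.2% of all genes.

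Of 10 genes of phosphodiesterases that break down cyclic AMP, 2 were called, 1 in each direction, beside 14.2% of all genes. Pde3a had 14.1 and 38.8 in the first set and 493, 876 and 744 in the second, 26.6-fold higher in the second set in the authors' deposited table (adjusted p of 1.73e-10). Its close relative Pde3b was 2.60-fold higher in the first set in the authors' deposited table (0.00801). Pde4b, from 1033 to 5678 over the libraries, and Pde7a, from 1122 to 2772, were not called.

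In the arm downstream of Gq, the called genes were Prkcb, Prkcd and Plcb2. Prkcb, a protein kinase C gene, had 8868 and 8319 in the first set and 153, 256 and 603 in the second, 25.5-fold higher in the authors' deposited table (adjusted p of 5.06e-28). Prkcd and Plcb2, a phospholipase C gene, were 8.19-fold and 8.75-fold higher in the first set in the authors' deposited table (9.48e-14 and 7.72e-10). Plcb3, the phospholipase C gene with the highest count, ranged from 2598 to 4494 and was not called. Of these 11 genes, 3 were called higher in the first set and 0 lower, beside 8.1% and 6.09% of all genes, and nothing particular to this arm is read from so few.

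Genes that switch receptors off were among those called. Of 7 receptor kinase and arrestin genes, 2 were called higher in the first set, beside 8.1% of all genes. Of 5 regulator genes, 2 were called, 1 in each direction, beside 14.2%, and nothing is read from such small numbers. Adrbk1, which encodes the receptor kinase also named GRK2, had 10781 and 8260 in the first set and 2002, 1952 and 3056 in the second, 4.07-fold higher in the first set in the authors' deposited table (adjusted p of 2.01e-06). Arrb2, an arrestin gene, had 4557 and 4221 against 309, 328 and 331, 13.6-fold higher in the first set in the authors' deposited table (2.37e-17). Grk6 ranged from 3169 to 4095 without a call. The regulator gene Rgs2 was 4.87-fold higher in the first set and Rgs5, also a pericyte marker, 13.4-fold higher in the second in the authors' deposited table (8.85e-08 and 0.0106), while Rgs3 was not called (0.41).

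Of 5 kinase-anchoring protein genes, 2 were called, 1 in each direction, beside 14.2% of all genes, and nothing is read from so few. Akap12, whose product gravin binds beta receptors, had 1262 and 2270 in the first set and 11696, 16293 and 9572 in the second, 7.09-fold higher in the second set in the authors' deposited table (adjusted p of 2.77e-06). Akap13 was 2.26-fold higher in the first set in the authors' deposited table (0.0207). Ezr ranged from 8748 to 13630 and was not called. As for Adrb1, the leukocyte markers were high in the first set, and the summed counts of 6 pericyte markers (1692 and 2181 against 20585 to 36395) and 6 renal stroma markers (5327 and 4772 against 51997 to 90994) were high in the second. The part of these cell types in the pathway calls was not tested.

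**Figure D5:**
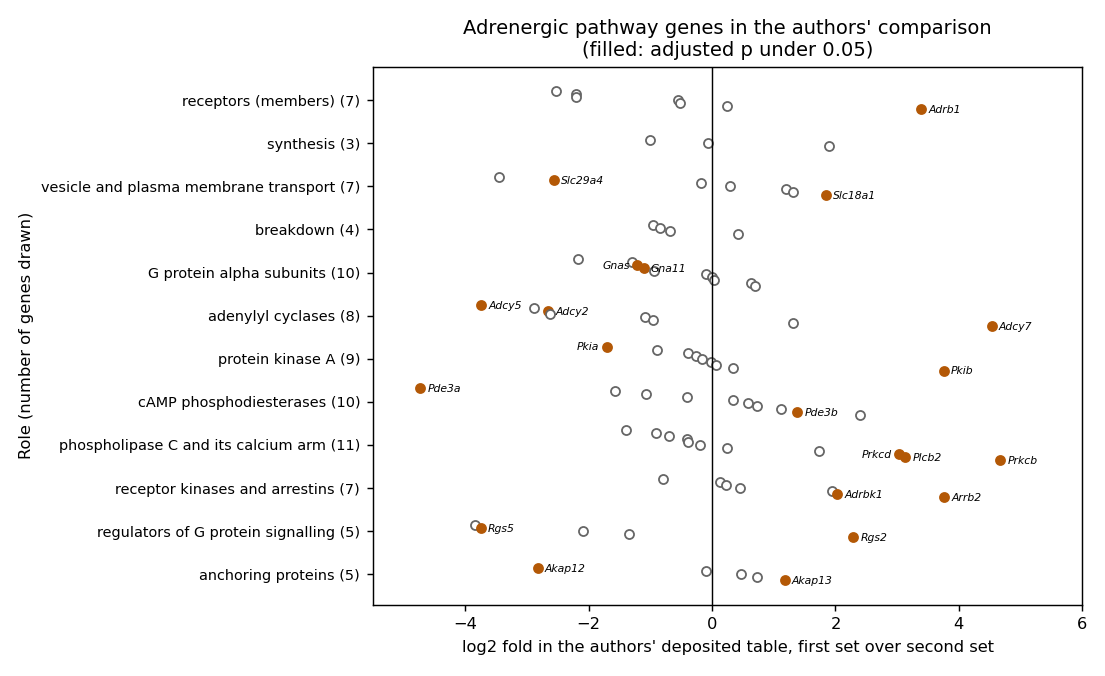
log2 fold of the first set over the second set in the authors' deposited table (horizontal axis) for the 7 receptor genes and 79 of the 81 pathway genes by role (rows, number drawn in parentheses), with filled points for genes at an adjusted p under 0.05 and open points for the rest. Pnmt and Adcy8, listed at 0 in the first set, have no finite fold and are not drawn; Adrb1 is the filled receptor, and called genes lie on both sides of 0, from Pde3a at -4.73 to Prkcb at 4.67.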

How the data were processed

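RNA of 5 sorted cell samples was sequenced. Per the submitters' processing notes, the build was mm10, and TopHat2 2.0.11, HTSeq 0.6.1p2 and DESeq 1.18.0 were among the tools; the gene annotation is not given in those notes. Libraries were made with Clontech and Nextera XT kits, per the labels' protocols. The authors deposited signal columns that hold, per library, read counts divided by 1 size factor, and, per the file headers, the mean over all libraries, the ratio of the means of 2 groups as a fold, its log2, a p-value and an adjusted p-value. The 3 summary rows were left out, which took 23.2% to 32.8% of the reads of each library. The smallest value above 0 in a column was taken as 1 read, and with it 100% of values above 0 were whole within 0.01. On these reads edgeR called 0 genes by label and DESeq2 called 10. A floor of 3 reads equals a normalized count of 2.23 to 4.23 and covers counting error only, since PCR copies are not independent molecules.

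Libraries were grouped by title. Labels were compared with limma 3.58.1 in R 4.3.3, with its trend option, on log2(normalized count + 1). It covered 16579 genes whose mean was at least 5, and Benjamini-Hochberg adjustment ran over all of them. Exact 2-sided permutation tests were used for single genes. Alternatives were TMM scaling, edgeR 4.0.16, DESeq2 1.42.0, other pseudocounts and filters, each library left out and a replicate block. The fits were tested on simulated counts with independent replicates and known label changes. Those counts hold no split of the libraries across the labels, so they do not show the power of the fits here. Every pair of libraries differed by more than sampling noise, with a chi-square of 98.3 to 743 per degree of freedom.

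The receptor genes, pathway list, markers and naming rule were chosen with earlier results of these data known. Named from the pathway were, per role, the 2 genes with the highest mean and up to 4 called genes; for patterns, the 3 nearest genes, without names of predicted genes, clones, pseudogenes and ribosomal proteins. Dbh, Slc6a2, Rgs5 as a marker, Ptprc, Csf1r, Ren1, Pnmt and Adcy8 were named after their values were seen. A breakdown enzyme that the rule names is not reported here. Values from the authors' table carry no error of their own.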

Additional observations from a re-analysis of the deposited data

How the results depend on the processing

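By label, 0 genes, 0 receptors and 0 pathway genes were called in limma, and with each library left out in turn (0 to 0 for each). DESeq2 called 10 genes, of which 0 were receptors or pathway genes. Of 83 receptor differences under alternatives, 77 kept their direction and 6 reversed, and the lowest adjusted p was 0.492. Adra1b turned from -0.83 to 0.20 in edgeR, to 0.19 in DESeq2 and to 1.55 within the second set, an alternative chosen after seeing the data, in which Adrb1 was -0.12. With each library left out, Adra1b ranged from -2.83 to 1.18 and Adrb1 from -1.06 to 2.89, both turning sign without positive-labelled library 1. Adra1a ranged from -5.82 to -0.26, Adra2a from 1.03 to 1.29, Adra2b from -3.75 to -1.04 and Adrb3 from 0.45 to 2.96. Receptors whose labelled groups did not overlap numbered 2 with all libraries, beside 10.8% of all genes with a mean of at least 5. They numbered 2 to 6 with a library left out, 6 without positive-labelled library 2, where a single library stands against 3. The share of all genes was not counted with a library left out, so those numbers cannot be judged. A library left alone in its group is assumed to vary like the others. The cause of these shifts was not tested.

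With the replicate number as a block, 0 genes, 0 receptors and 0 pathway genes were called, as without it. The block difference was 0.04 for Adrb1 and 1.03 for Adra2a, the same as without negative-labelled library 3. Number 3 occurs only in that library, so the block differences are no separate check, though they were counted separately above. Whether libraries of the same number belong together is not known. The correlation of their deviations from the group means was -0.53 for number 1 and -0.69 for number 2. With 2 positive-labelled libraries these deviations mirror each other, so the correlations cannot tell whether the numbers mark pairs. Depth limits Adra1d, Adra1b and Adrb3 most, with 0 to 51 reads a library.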
